A study of Homo sapiens with 6 samples.

Results

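The genes of the antioxidant and NRF2 response were examined in human stem cell-derived cardiomyocytes exposed to alcohol. The group was defined by name and holds 41 genes, and all 41 were listed among the 21134 genes of the expression table. Of these, 39 had enough reads to be tested, while HMOX1 and TXNRD2 did not. RNA sequencing was done on 2 libraries of untreated cells (control), 2 of cells exposed to alcohol at 100 mM over 24 h (alcohol) and 2 that received the same alcohol dose plus losartan at 1 μM over the same time (alcohol + losartan). Losartan blocks the angiotensin receptor AT1R, and there was no group given losartan without alcohol. All groups came from 1 line, which is labelled H9 and described as an induced pluripotent stem cell line, although H9 is the usual name of a human embryonic stem cell line. The cells had been differentiated in medium with B27 supplement and an ascorbic acid derivative, and all 3 groups shared this history. By the paper's methods, alcohol and losartan were also diluted in B27. The ascorbic acid derivative is itself an antioxidant, and what B27 contains is not given in the sources used here. The study asked how alcohol injures cardiomyocytes and whether blocking AT1R limits oxidative stress, and the comparisons below describe the transcripts of the antioxidant enzymes in that setting.

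NRF2, the product of NFE2L2, is a transcription factor that KEAP1 holds in the cytoplasm and delivers for degradation. When reactive species or electrophiles modify KEAP1, NRF2 accumulates, enters the nucleus, pairs with a small MAF protein at antioxidant response elements and raises the transcripts of its targets, among them NQO1, HMOX1, SRXN1, TXNRD1 and both subunits of glutamate-cysteine ligase. Because NRF2 is controlled mainly at the protein level, its own transcript is a poor measure of its activity, and the transcripts of its targets are the usual readout. Beating cardiomyocytes carry many mitochondria and rely on superoxide dismutases, peroxiredoxins, glutathione peroxidases and catalase to remove superoxide and peroxides.

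The 6 libraries held 4898287 to 5051448 estimated read counts each, so that 3 counts, taken as the smallest reliable signal, corresponded to 0.594 to 0.612 CPM (counts scaled to the library total). All 12 cardiomyocyte markers were present, with levels in FPKM (fragments scaled to transcript length and library size). They summed to 30512 and 31063 FPKM in control, 29164 and 22052 FPKM in alcohol, and 24905 and 27622 FPKM in alcohol + losartan. Every exposed library was thus below both control libraries, and alcohol replicate 2 was the lowest. Single markers went both ways. MYL7 had means of 15346, 10967 and 11043 FPKM in the 3 groups, and MYH7 had 2449, 2952 and 2937 FPKM. Among 4 endothelial markers, PECAM1, CDH5 and VWF were below 1 FPKM in every library. The 4 smooth muscle markers summed to 1926 and 1689 FPKM in the control libraries, 1451 and 722 FPKM in the alcohol libraries, and 991 and 1036 FPKM in the alcohol + losartan libraries, and the 6 liver and endoderm markers summed to 38.5 and 37.2, 49.8 and 49.7, and 46.9 and 48.4 FPKM, with APOB and FOXA2 below 1 FPKM throughout. Within the smooth muscle sum, ACTA2 had 203 to 580 FPKM, TAGLN 340 to 998 and CNN1 177 to 422 over the 6 libraries. MYH11 had 1.71 to 4.77 FPKM. The 7 fibroblast markers summed to 332 to 400 FPKM over the 6 libraries. Which cells these transcripts came from, and their part in the values below, was not tested. In bulk libraries fewer cells of a type and less RNA per cell cannot be told apart. The labels do not say whether the 2 libraries of a group came from separate cultures, so the tests measure the spread between these libraries.

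No single antioxidant gene passed the test, in a dataset where few genes of any kind did. None of the 39 genes tested passed the threshold of an adjusted p under 0.05 in edgeR's quasi-likelihood test when alcohol was compared with control, where 0.067% of all 14926 genes tested did. None passed in alcohol + losartan against control, where 0.362% of all genes did, in alcohol + losartan against alcohol, where 0.0134% did, or in the 4 alcohol-exposed libraries against control, where 0.556% did. The counts at an unadjusted p under 0.05 were 5, 5, 1 and 7 of 39 in these 4 comparisons, against 11.0%, 12.6%, 5.55% and 13.5% of all genes. DESeq2 called 0, 1, 0 and 1 of the 39 genes, the gene called being TXNIP each time, and limma on log2(FPKM + 1) called 0 in all 4. These counts are near the shares of all genes and set the group apart in neither direction. The comparisons with control share the same 2 control libraries and are not independent.

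Most of the group, like most of all genes, lay within 1.5-fold of control. In alcohol against control, 38 of the 39 genes lay within 1.5-fold of their control level, a range that held 90.0% of all genes, and the exception was the metallothionein MT1X. In alcohol + losartan against control, 35 of 39 lay within that range against 89.6% of all genes, the exceptions being MT1X, MT2A, TXNIP and OSGIN1. The median log2 fold change over the 39 genes was 0.06 for alcohol and 0.08 for alcohol + losartan, both against control, beside a median of 0.0 over all genes tested in each. The 15 tested genes among the 16 well-known NRF2 targets had medians of 0.08 and 0.09. The standard error of a single gene's log2 fold change had a median of 0.15 in both comparisons. Members that stood away from 0 are marked in the histogram of all genes.

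**Figure D1:**
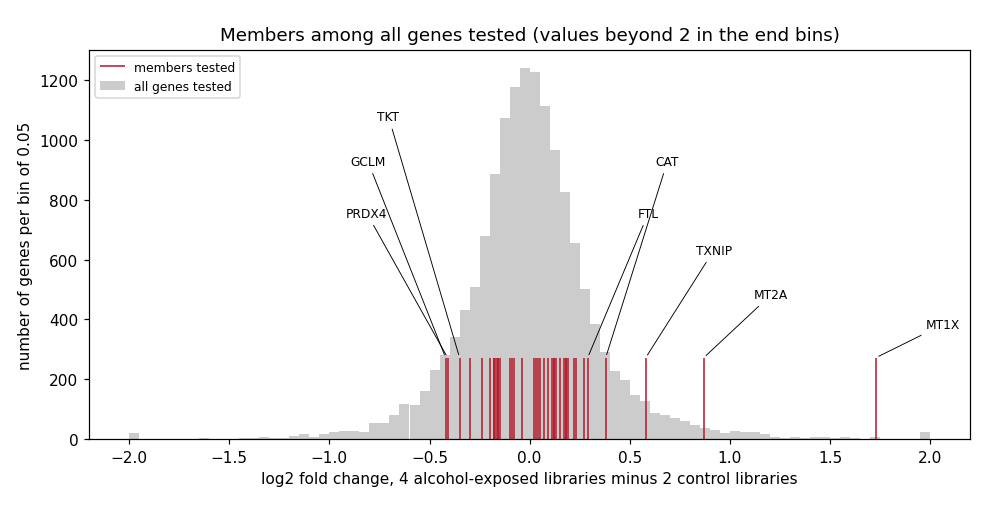
Grey bars count all 14926 genes tested by their log2 fold change (horizontal axis) in the 4 alcohol-exposed libraries against the 2 control libraries, and each red line marks 1 of the 39 antioxidant and NRF2 genes tested. Most red lines lie within the bulk of the grey distribution, and MT1X at 1.73, MT2A at 0.87 and TXNIP at 0.58 lie farthest to the right.

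The regulators of the pathway were expressed at similar levels in all groups. NFE2L2 (NRF2 itself) had 20.4 and 21.5 FPKM in the control libraries, 19.4 and 24.2 FPKM in the alcohol libraries, and 21.8 and 23.9 FPKM in the alcohol + losartan libraries. KEAP1, its inhibitor, had 17.3 and 19.0 FPKM in control, 21.6 and 21.1 FPKM in alcohol, and 20.6 and 16.3 FPKM in alcohol + losartan. The NFE2L2 values of the alcohol libraries enclosed those of the control libraries. Both alcohol libraries were above both control libraries for KEAP1, but the log2 difference of 0.21 was only slightly larger than its standard error of 0.15, and the alcohol + losartan libraries overlapped control.

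Among the classical NRF2 targets, the quinone reductase NQO1 was low, with 1.58 and 2.56 FPKM in control, 1.99 and 2.64 FPKM in alcohol, and 1.63 and 3.17 FPKM in alcohol + losartan, and the 3 groups overlapped. HMOX1, which breaks down haem and is among the most responsive NRF2 and BACH1 targets, was near the limit of detection. It had 2 and 2 counts in the control libraries, 6 and 9 counts in the alcohol libraries, and 5 and 8 counts in the alcohol + losartan libraries, or 0.25 and 0.25, 0.74 and 1.15, and 0.64 and 1.00 FPKM. Every exposed library was above both control libraries, but at most 9 reads supported a value. The pooled counts of 28 in the 4 exposed libraries and 4 in the 2 control libraries gave a rate ratio of 3.55 with an exact 95% interval of 1.24 to 13.9, which covers counting error only and not the spread between cultures. Fitted with no filter on low counts, HMOX1 in the exposed libraries against control had a log2 fold change of 1.73 with a standard error of 0.75 and an edgeR adjusted p of 0.466. The constitutive haem oxygenase HMOX2 lay between 20.5 and 27.7 FPKM in all 6 libraries, and the quinone reductase NQO2 lay between 9.70 and 14.5 FPKM.

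The 4 members grouped around NADPH were PGD and ME1, which form it, and TKT and TALDO1 of the non-oxidative pentose phosphate pathway, which do not. None of the 4 passed the test, and against control PGD lay above and the other 3 below in each comparison. NADPH is the electron donor on which the glutathione and thioredoxin systems depend. Transketolase (TKT), of the non-oxidative pentose phosphate pathway, had 10.9 and 12.1 FPKM in control, 10.0 and 10.2 FPKM in alcohol, and 8.54 and 8.68 FPKM in alcohol + losartan. Its level was thus highest in both control libraries and lowest in both alcohol + losartan libraries with no overlap, yet the log2 fold change of -0.46 with a standard error of 0.18 in alcohol + losartan against control did not pass the test (edgeR adjusted p = 0.29), nor did that of -0.35 with a standard error of 0.15 in all exposed libraries (adjusted p = 0.329). PGD, the third enzyme of the oxidative branch, had 50.7 and 57.5 FPKM in control against 59.3 to 63.4 FPKM in the exposed libraries, a difference of 0.12 on the log2 scale, and on CPM scaled with TMM factors (a between-library correction) its alcohol + losartan libraries overlapped control. TALDO1 had 30.9 to 43.1 FPKM and ME1 had 8.72 to 12.4 FPKM over the 6 libraries, with overlapping groups.

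Glutathione synthesis starts with glutamate-cysteine ligase, whose catalytic subunit GCLC and modifier subunit GCLM are both NRF2 targets. GCLC had 8.03 and 7.12 FPKM in control, 8.54 and 9.07 FPKM in alcohol, and 8.71 and 10.3 FPKM in alcohol + losartan, all exposed libraries above both control libraries. GCLM had 3.62 and 3.31 FPKM in control, 2.30 and 3.16 FPKM in alcohol, and 2.68 and 2.57 FPKM in alcohol + losartan, all exposed libraries below both control libraries. The subunits therefore lay on opposite sides of control, and neither difference passed the test. The estimated counts of GCLM were not whole numbers in any of the 6 libraries, so its values are uncertain in how reads were split. The log2 fold change of GCLM over the 4 exposed libraries was -0.42 with a standard error of 0.19 (edgeR adjusted p = 0.35), and that of GCLC was 0.23 with a standard error of 0.14. Glutathione synthetase (GSS) ranged from 15.3 to 21.9 FPKM and glutathione reductase (GSR) from 21.7 to 27.6 FPKM over the 6 libraries.

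Antioxidant response element cores were looked for in the 250 bases before the annotated start of each gene, using RefSeq sequences of the GRCh38.p14 build. The letters searched were TGACNNNGC on both strands, and 10.9% of 35116 promoters held a match. Of the 33 member genes with an entry, 7 held one, namely GCLM, KEAP1, ME1, MT1X, MT2A, PGD and TXNRD1, and among the 12 NRF2 targets with an entry 4 did. These 4 stretches are shown because they place the letters beside targets whose values are given here, with the match in capitals, in the direction of transcription. The GCLM stretch is at chr1:93909446-93909474, minus strand, that of TXNRD1 at chr12:104215670-104215698, plus strand, that of ME1 at chr6:83431170-83431198, minus strand and that of PGD at chr1:10398853-10398881, plus strand. A match is a description of the letters and not a bound site, and the absence of one says nothing about NRF2.
GCLM: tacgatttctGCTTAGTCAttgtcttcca
TXNRD1: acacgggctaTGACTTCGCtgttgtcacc
ME1: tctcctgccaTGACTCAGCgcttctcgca
PGD: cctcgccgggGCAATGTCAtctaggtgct
Of the 4 genes with these matches, PGD lay above control by 0.12 and GCLM, ME1 and TXNRD1 lay below it by -0.42, -0.20 and -0.16 on the log2 scale over all exposed libraries, none passing the test.

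TXNIP was the member closest to the threshold. Its product, thioredoxin-interacting protein (gene ID 10628), is an α-arrestin that binds and inhibits thioredoxin and also reduces glucose uptake. TXNIP had 179 and 188 FPKM in the control libraries, 218 and 286 FPKM in the alcohol libraries, and 286 and 349 FPKM in the alcohol + losartan libraries. All exposed libraries were above both control libraries, and the 2 alcohol + losartan libraries included the highest value. The log2 fold change against control was 0.41 with a standard error of 0.15 for alcohol (edgeR adjusted p = 0.305) and 0.74 with a standard error of 0.15 for alcohol + losartan (adjusted p = 0.0506). Over the 4 exposed libraries it was 0.58 with a standard error of 0.13 (adjusted p = 0.0621). The difference between alcohol + losartan and alcohol was 0.33 with a standard error of 0.15 (adjusted p = 0.896). Left out 1 library at a time, that difference ranged from 0.16 without alcohol + losartan replicate 2 to 0.49 without alcohol replicate 2. At 285.7 and 286.1 FPKM the lower alcohol + losartan library and the higher alcohol library were level, although on CPM scaled with TMM factors both alcohol + losartan libraries were above both alcohol libraries.

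The call on TXNIP depended on the way of testing. For alcohol + losartan against control, the adjusted p ranged from 0.000265 to 0.37 over 14 alternatives and was under 0.05 in 6 of them. DESeq2 gave 0.000265, and leaving out alcohol replicate 1 or alcohol replicate 2, neither of which enters the difference itself, gave 0.0134 and 0.0155. Without alcohol + losartan replicate 2 the log2 fold change was 0.57 and the adjusted p 0.37. Alcohol replicate 2 weighed on the comparison of alcohol with control, whose log2 fold change was 0.25 when it was left out, against 0.57 when replicate 1 was. In the 4 exposed libraries against control, the adjusted p ranged from 0.00183 to 0.284 over 13 alternatives and was under 0.05 in 4, one of them without alcohol replicate 1 at 0.0106.

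ARRDC4, the closest relative of TXNIP among the α-arrestins and like it a brake on glucose uptake, is not one of the 41 genes but was followed beside it. It was named for an unadjusted edgeR p under 0.01, from a list chosen with earlier results known, so its pattern was partly selected. It had 18.7 and 17.7 FPKM in control, 22.1 and 26.7 FPKM in alcohol, and 28.7 and 36.0 FPKM in alcohol + losartan, a sequence of 3 groups with no overlap. Of all genes tested, 14.8% had every exposed library above control, and 18.0% had both alcohol + losartan libraries above alcohol. The share with both was not counted. ARRDC4 rose in alcohol + losartan against control, by 0.78 on the log2 scale with a standard error of 0.14 (edgeR adjusted p = 0.035). This call was lost without any 1 of the 4 libraries compared, the adjusted p being 0.0891 and 0.175 without control replicates 1 and 2 and 0.0968 and 0.349 without alcohol + losartan replicates 1 and 2, and it held in 7 of 14 alternatives over a range of 0.00298 to 0.349. Over all exposed libraries the log2 fold change was 0.58 with a standard error of 0.13 (adjusted p = 0.0575).

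Both arrestin genes are textbook targets of glucose-sensing factors that bind paired E-box-like letters, and these letters were searched after the values of the genes had been seen. The paired motif CACGNGNNNNNCNCGNG was present, on either strand, in 0.424% of the 35116 promoter windows and in 2 of the 33 members with an entry, TXNIP and GPX1. The plain E-box CACGTG was present in 6.34% of windows, including that of ARRDC4, and within the members in GPX1, HMOX2, PRDX3 and PRDX4. The paired motif allows an E-box within it. The matches of TXNIP, at chr1:145996641-145996677, minus strand, and of ARRDC4, at chr15:97960483-97960508, plus strand, are shown in capitals. The TXNIP match is the paired motif, while the ARRDC4 match is a plain E-box only. The ARRDC4 letters shown do not form the paired motif.
TXNIP: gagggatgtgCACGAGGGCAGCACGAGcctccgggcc
ARRDC4: acggcctgtgCACGTGcacgccggag
These letters are a description of the 2 promoters. GPX1, which also holds the paired letters, had 89.7 and 96.1 FPKM in control and 87.6 to 91.0 FPKM in the exposed libraries.

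The rest of the thioredoxin system stayed near control. Thioredoxin itself (TXN) had 71.1 and 68.5 FPKM in control, 63.5 and 63.1 FPKM in alcohol, and 62.0 and 65.2 FPKM in alcohol + losartan, all exposed libraries slightly below control, with a log2 difference of -0.18 and a standard error of 0.11. Thioredoxin reductase 1 (TXNRD1), which returns thioredoxin to its reduced form, had 29.3 and 30.3 FPKM in control, 24.1 and 28.4 FPKM in alcohol, and 27.2 and 29.6 FPKM in alcohol + losartan. Sulfiredoxin (SRXN1), which repairs over-oxidised peroxiredoxins and is a sensitive NRF2 target, had 8.98 and 8.79 FPKM in control, 9.93 and 10.9 FPKM in alcohol, and 8.89 and 11.4 FPKM in alcohol + losartan. The alcohol libraries lay above control for SRXN1 and below it for TXNRD1, and the alcohol + losartan libraries overlapped control for both. Mitochondrial thioredoxin TXN2 ranged from 35.1 to 52.6 FPKM and SESN3, a sestrin, from 17.2 to 28.5 FPKM. The mitochondrial reductase TXNRD2 was at 0 to 0.75 FPKM and was too low to test.

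**Figure D2:**
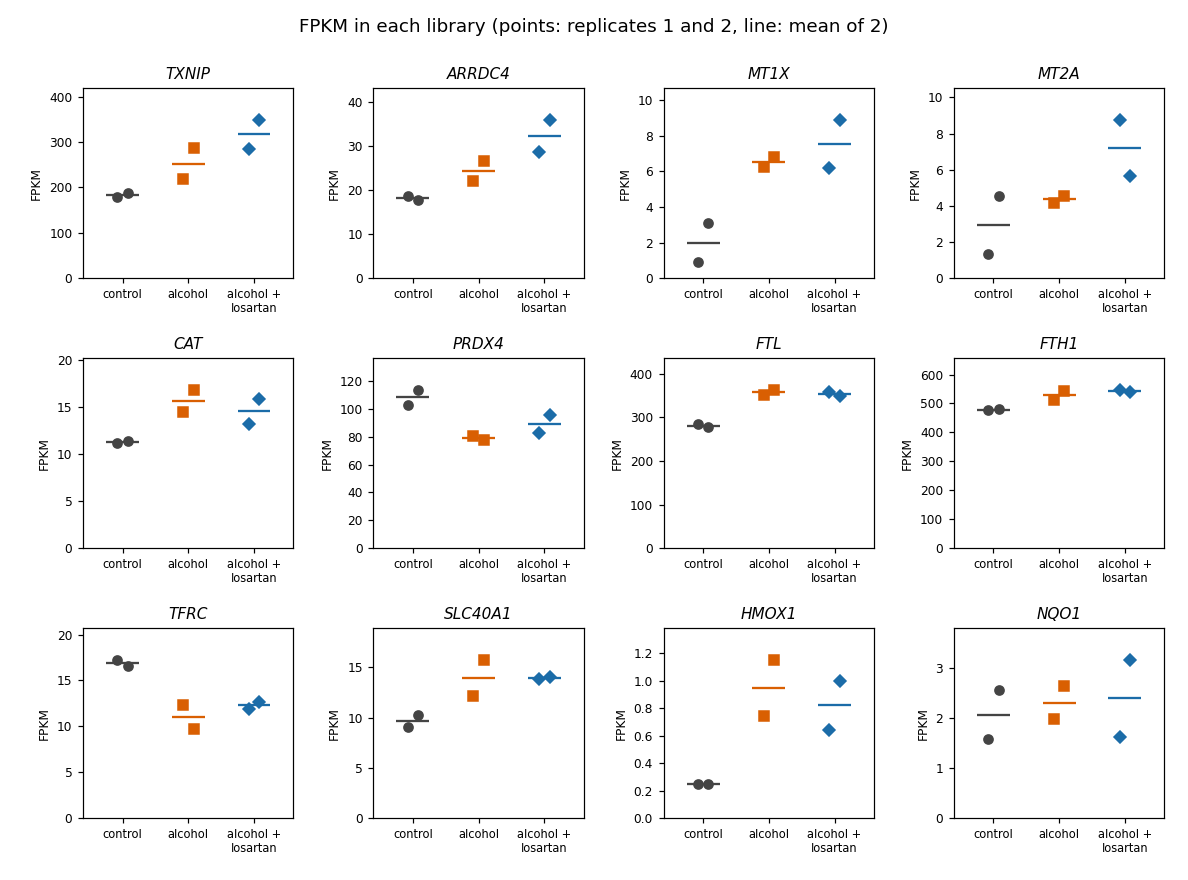
Each panel shows 1 gene, with FPKM on a linear axis from 0, a point for each of the 2 libraries of a group and a line at their mean. TXNIP and ARRDC4 step up from control to alcohol to alcohol + losartan, the exposed libraries lie above control for MT1X, CAT, FTL, FTH1, SLC40A1 and HMOX1 and below it for PRDX4 and TFRC, and alcohol overlaps control for MT2A and NQO1.

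The peroxiredoxins, thiol peroxidases that consume much of the cellular peroxide, were among the most abundant members. PRDX4, the form that resides in the endoplasmic reticulum (gene ID 10549), had 103 and 114 FPKM in control, 80.2 and 77.4 FPKM in alcohol, and 82.2 and 95.4 FPKM in alcohol + losartan. Both exposed groups were below control with no overlap, and the alcohol group was the lowest. The log2 fold change was -0.50 with a standard error of 0.13 for alcohol (edgeR adjusted p = 0.17), -0.33 with a standard error of 0.13 for alcohol + losartan (adjusted p = 0.305) and -0.41 with a standard error of 0.11 over all exposed libraries (adjusted p = 0.111), so PRDX4 did not pass. PRDX1, a cytosolic form and NRF2 target, had 222 and 269 FPKM in control, 235 and 331 FPKM in alcohol, and 258 and 298 FPKM in alcohol + losartan, with overlap. Across the 6 libraries PRDX2 ranged from 271 to 325 FPKM, PRDX3, the mitochondrial form, from 121 to 150 FPKM, PRDX5 from 216 to 268 FPKM and PRDX6 from 137 to 188 FPKM. PRDX4 was thus the only one of the 6 peroxiredoxins with an unadjusted p under 0.05 in any comparison.

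Superoxide dismutases turn superoxide into hydrogen peroxide, and catalase and the peroxidases then remove it. Catalase (CAT, gene ID 847) had 11.2 and 11.4 FPKM in control, 14.5 and 16.9 FPKM in alcohol, and 13.2 and 15.9 FPKM in alcohol + losartan. All exposed libraries were above control, by 0.43 with a standard error of 0.17 on the log2 scale in alcohol (edgeR adjusted p = 0.353) and by 0.38 with a standard error of 0.15 over all exposed libraries (adjusted p = 0.278), and the difference did not pass. The cytosolic SOD1 had 101 and 121 FPKM in control, 90.7 and 102 FPKM in alcohol, and 88.5 and 106 FPKM in alcohol + losartan. The mitochondrial SOD2 had 60.6 and 57.7 FPKM in control, 65.3 and 62.4 FPKM in alcohol, and 67.2 and 74.4 FPKM in alcohol + losartan. SOD2 was above control in each exposed library on the FPKM scale, while on TMM-scaled CPM its alcohol libraries overlapped control. The secreted SOD3 was low, with 2.84 and 4.66, 3.48 and 3.19, and 4.26 and 3.63 FPKM in the 3 groups.

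The glutathione peroxidases reduce peroxides with glutathione. GPX4, the form that protects membranes from lipid peroxidation and ferroptosis, had 101 and 120.0 FPKM in control, 112 and 121 FPKM in alcohol, and 109 and 86.4 FPKM in alcohol + losartan. Its alcohol + losartan libraries were both below the alcohol libraries, by -0.26 with a standard error of 0.14 on the log2 scale (edgeR adjusted p = 0.9), and without alcohol + losartan replicate 2, the lowest library, the difference was -0.12. The secreted GPX3 had its highest value, 21.5 FPKM, in alcohol replicate 2 and at most 16.3 FPKM in the other libraries, and the endoplasmic reticulum forms GPX7 and GPX8 had 34.4 to 40.0 and 23.7 to 28.9 FPKM. None of the 5 glutathione peroxidases had an unadjusted p under 0.05 in any of the 4 comparisons.

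The ferritin subunits store iron in a form that cannot feed radical chemistry, and both are NRF2 targets. The light chain FTL (gene ID 2512) had 285 and 277 FPKM in control, 351 and 363 FPKM in alcohol, and 357 and 348 FPKM in alcohol + losartan. The exposed libraries were all above control and close to each other. The log2 fold change was 0.31 with a standard error of 0.11 for alcohol (edgeR adjusted p = 0.325), 0.28 with a standard error of 0.11 for alcohol + losartan (adjusted p = 0.318) and 0.29 with a standard error of 0.10 over all exposed libraries (adjusted p = 0.194), and it did not pass. The heavy chain FTH1 had 476 and 479 FPKM in control, 512 and 543 FPKM in alcohol, and 547 and 540.4 FPKM in alcohol + losartan, a log2 difference of 0.12 with a standard error of 0.10. Ferritin genes have many processed pseudogenes. The estimated counts of FTL and FTH1 were whole numbers in every library, so they show no reads shared in fractions. How reads of the pseudogenes were assigned is not given in the sources used here, so these values are uncertain to that extent.

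Genes of iron transport outside the group were followed as context. TFRC, the transferrin receptor through which cells take up iron, had 17.2 and 16.6 FPKM in control, 12.3 and 9.72 FPKM in alcohol, and 11.9 and 12.7 FPKM in alcohol + losartan, with a log2 fold change of -0.58 and a standard error of 0.13 over the exposed libraries (edgeR adjusted p = 0.0575). SLC40A1, ferroportin, the iron exporter, had 9.03 and 10.3 FPKM in control, 12.1 and 15.7 FPKM in alcohol, and 13.9 and 14.0 FPKM in alcohol + losartan, with a log2 fold change of 0.48 and a standard error of 0.14 (adjusted p = 0.128). TFRC was thus lower, and FTL, FTH1 and SLC40A1 higher, in every exposed library than in control. Such separation was shown by 8.39% of all genes tested in the lower and 14.8% in the higher direction. TFRC and SLC40A1 were named for an unadjusted edgeR p under 0.01, from a list chosen with earlier results known, so the pattern was partly selected. No single difference passed the test over all genes. TFRC passed in the exposed libraries in 4 of 13 alternatives, over a range of 0.0092 (without alcohol replicate 1) to 0.266, and in alcohol alone in 1 of 14, without alcohol replicate 1 at 0.0206.

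The metallothioneins, small cysteine-rich proteins that bind zinc and copper and scavenge radicals, had the largest fold changes against control among the genes tested, from few reads. MT1X (gene ID 4501) had 0.90 and 3.09 FPKM in control, 6.22 and 6.80 FPKM in alcohol, and 6.16 and 8.89 FPKM in alcohol + losartan, from 2.00 and 6.84, 13.8 and 14.6, and 13.2 and 19.6 estimated counts. The exposed libraries were all above control. The log2 fold change was 1.64 with a standard error of 0.63 for alcohol (edgeR adjusted p = 0.352), 1.82 with a standard error of 0.62 for alcohol + losartan (adjusted p = 0.24) and 1.73 with a standard error of 0.57 over the exposed libraries (adjusted p = 0.184). The control libraries set this size, since over the exposed libraries it was 1.13 without control replicate 1 and 2.85 without control replicate 2. MT2A had 1.36 and 4.55 FPKM in control, 4.17 and 4.56 FPKM in alcohol, and 8.77 and 5.64 FPKM in alcohol + losartan, so that only the alcohol + losartan libraries were clear of control. The metallothionein genes are near-identical copies, and their estimated counts are uncertain in how reads were split. These counts were not whole numbers in 5 libraries for MT1X and in 4 for MT2A. Their relative MT1E, looked up after the values of MT1X had been seen, had 10.9 and 17.0, 18.1 and 20.0, and 21.5 and 18.7 FPKM in the 3 groups, with the exposed libraries above control. The other relatives were low and mixed. MT1F had 0 and 0.48, 2.78 and 2.01, and 0.48 and 2.68 FPKM. MT1G was at 0 in 4 libraries and had 0.61 FPKM in control replicate 2 and 0.73 FPKM in alcohol replicate 2, and MT1H was at 0 except for 1.08 FPKM in control replicate 2.

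The promoters of MT1X and MT2A are shown because both hold several matches to the letters of the metal response element, through which the zinc sensor MTF1 acts. The cores TGCACNC and TGCGCNC were searched on both strands, and 24.8% of the 35116 windows and 18 of 33 members held at least 1, so the presence of a match is common. MT1X held 4 and MT2A held 7, marked in capitals. The share of all windows with that many matches was not counted. The windows lie at chr16:56682220-56682469, plus strand, and at chr16:56608334-56608583, plus strand.
MT1X: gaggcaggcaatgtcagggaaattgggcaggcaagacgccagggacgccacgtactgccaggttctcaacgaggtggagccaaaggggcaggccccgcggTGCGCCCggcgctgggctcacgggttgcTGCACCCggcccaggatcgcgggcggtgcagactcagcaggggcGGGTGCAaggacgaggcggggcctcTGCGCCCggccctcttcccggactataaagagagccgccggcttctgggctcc
MT2A: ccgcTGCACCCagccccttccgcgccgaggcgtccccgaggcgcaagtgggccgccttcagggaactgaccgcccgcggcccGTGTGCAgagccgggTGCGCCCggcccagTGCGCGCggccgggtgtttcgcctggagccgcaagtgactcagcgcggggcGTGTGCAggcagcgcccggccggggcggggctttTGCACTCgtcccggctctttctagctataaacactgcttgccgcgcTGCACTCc
Both windows also hold an antioxidant response element core, which is not marked here. The nearest metal response core lies 47 bases before the MT1X start and 2 bases before that of MT2A.

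OSGIN1, an NRF2 target that takes part in growth arrest, was close to the floor, with 0.71 and 1.22 FPKM in control, 1.01 and 1.25 FPKM in alcohol, and 0.73 and 0.41 FPKM in alcohol + losartan. The alcohol + losartan libraries were both below the alcohol libraries, by -0.99 with a standard error of 0.62 on the log2 scale (edgeR adjusted p = 0.915). Without alcohol + losartan replicate 2 the difference was -0.64.

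**Figure D3:**
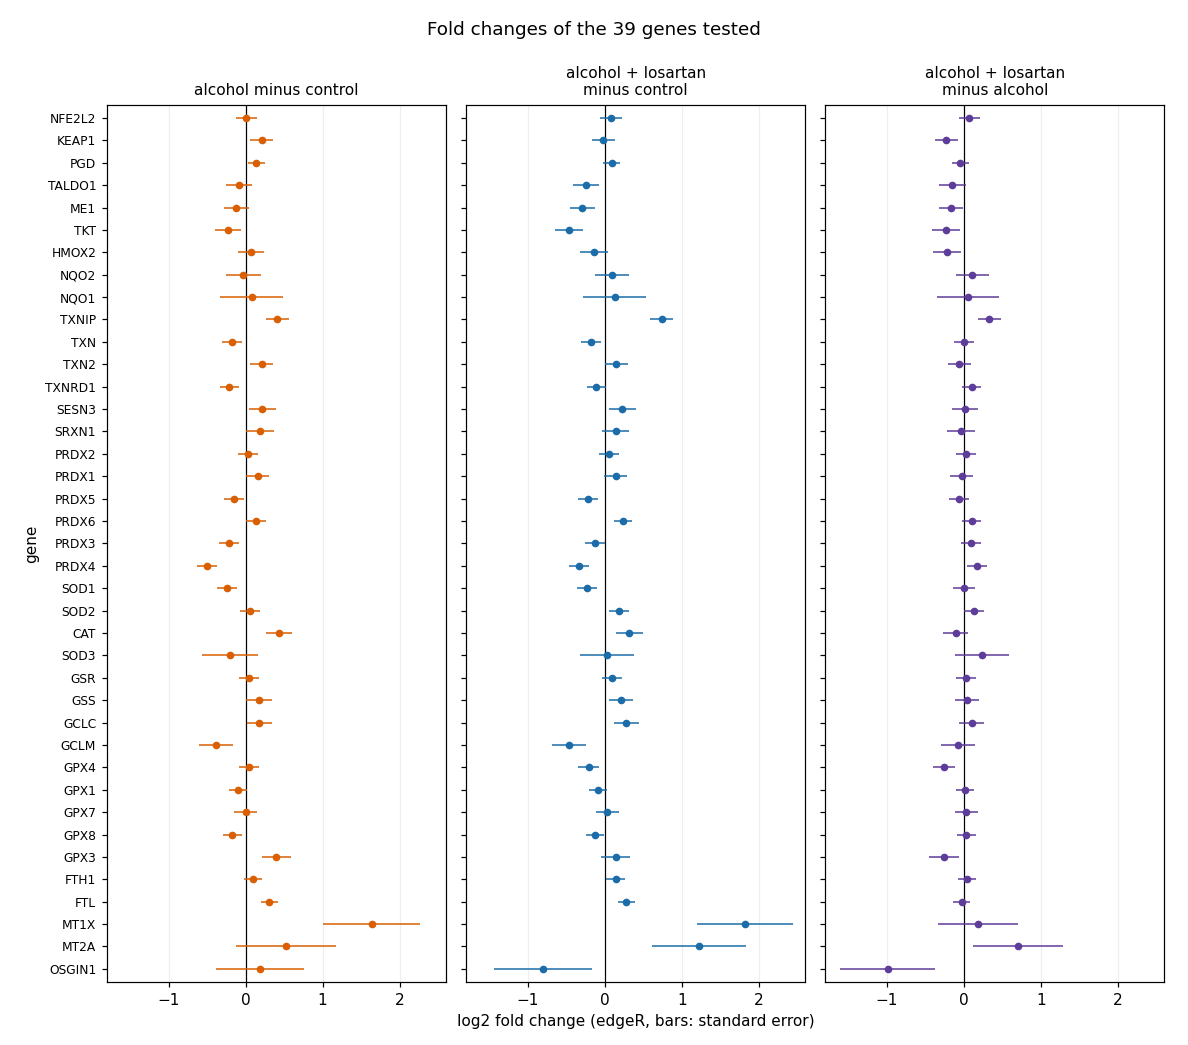
Log2 fold changes from edgeR (points) with standard errors (bars) for the 39 genes tested, ordered by role, in 3 comparisons on a shared axis. In alcohol + losartan against control, MT1X at 1.82, MT2A at 1.22, OSGIN1 at -0.8 and TXNIP at 0.74 lie farthest from 0. Nearly all points of alcohol + losartan against alcohol lie close to 0.

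Whether losartan altered the antioxidant genes on top of alcohol is addressed by comparing the 2 exposed groups. The median log2 fold change over the 39 genes was 0.01, with a median of 0.0 over all genes, and 37 of 39 genes lay within 1.5-fold against 93.3% of all genes, MT2A and OSGIN1 being outside. TXNIP was the 1 gene with an unadjusted p under 0.05 that was higher, against 2.84% of all genes in that direction, and 0 genes were lower, against 2.71%. The 15 tested NRF2 targets had a median of -0.03, with 10 below the alcohol level and 5 above it. Of all genes tested, 50.3% were above. Several of the 10 lay close to 0, such as FTL and PRDX1, both at -0.03. For NFE2L2, NQO1, GCLC and SRXN1 the difference was 0.07, 0.05, 0.10 and -0.04 on the log2 scale, with standard errors of 0.14, 0.40, 0.16 and 0.18.

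Separation of the groups was counted on the FPKM scale. All 4 exposed libraries were above both control libraries for 9 of the 41 genes, namely CAT, FTH1, FTL, GCLC, HMOX1, MT1X, PGD, SOD2 and TXNIP, 8 of them among the 39 tested, and 14.8% of all genes tested showed this. All were below for GCLM, PRDX4, TKT and TXN, 4 of 41 genes, against 8.39% of all genes. In alcohol alone 13 genes were above and 6 below, against 24.7% and 17.7% of all genes, and in alcohol + losartan 13 were above and 5 below control, against 27.1% and 16.3%. Between the exposed groups, 4 were above and 4 below alcohol, against 18.0% and 14.3%. On TMM-scaled CPM 7 genes were above and 6 below control in all exposed libraries, with PGD and SOD2 no longer above and GPX1 and TXNRD1 added below.

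**Figure D4:**
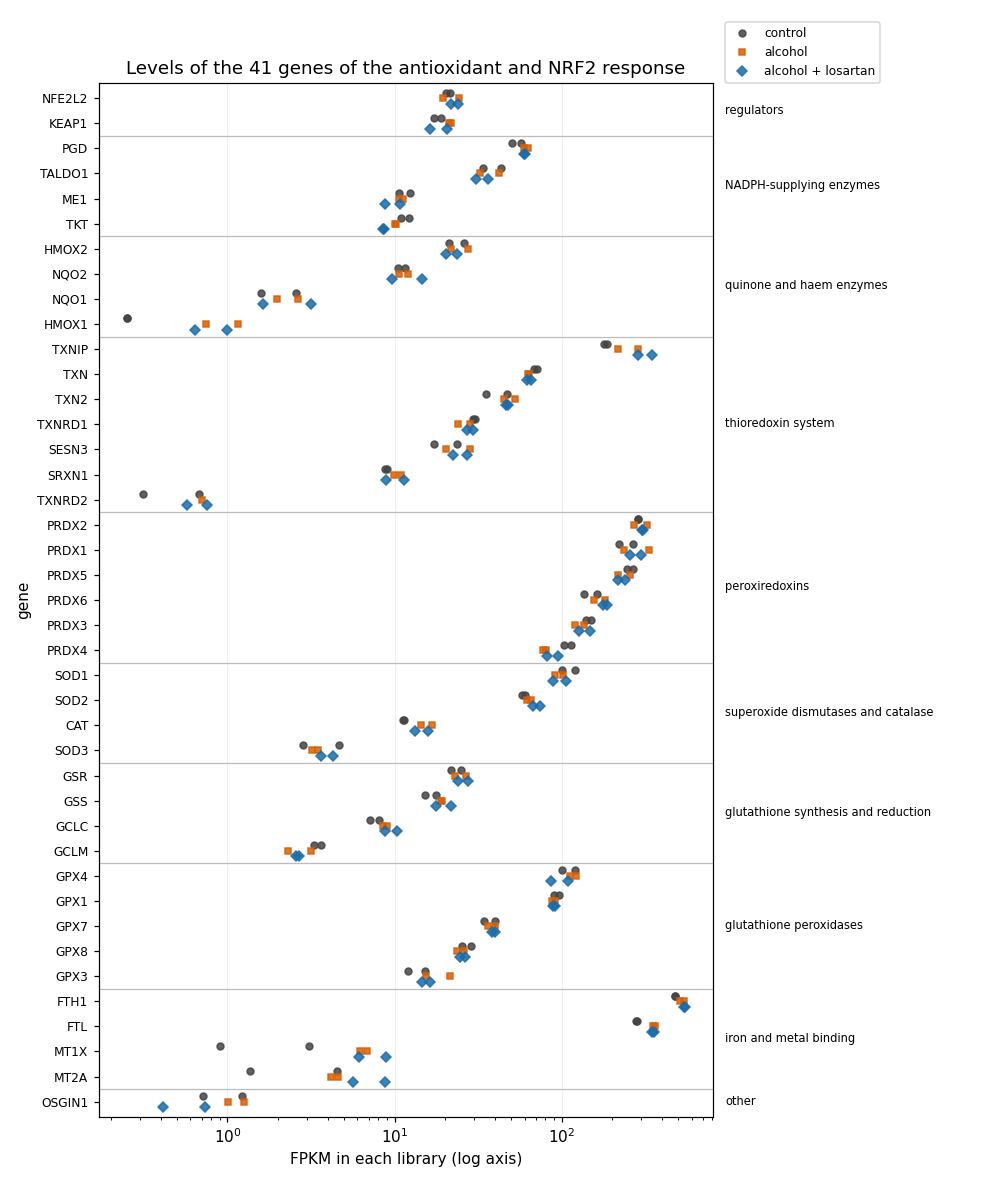
FPKM of the 41 genes in each of the 6 libraries on a log axis, grouped by role, with grey circles for control, orange squares for alcohol and blue diamonds for alcohol + losartan. Ferritin and TXNIP transcripts and those of all peroxiredoxins but PRDX4 lie above 100 FPKM in every library, HMOX1, TXNRD2 and OSGIN1 lie near or below 1 FPKM, and TXNRD2 in alcohol replicate 2, at 0, cannot be drawn on this axis.

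In level, the group spanned from 0 FPKM for TXNRD2 in alcohol replicate 2 to 547 FPKM for FTH1 in alcohol + losartan replicate 1, a scale that accounts for transcript length and so allows genes to be set beside each other. By mean FPKM, 10 genes were over 100 FPKM, 21 were at 10 to 100 FPKM, 7 were at 1 to 10 FPKM and 3 were below 1 FPKM. FTH1 made up 16.1% and FTL 10.3% of the summed FPKM of the 41 genes, and with PRDX2, PRDX1 and TXNIP the 5 most abundant made up 52.0%. The summed level was 2927 and 3110 FPKM in control, 3150 and 3334 FPKM in alcohol, and 3267 and 3384 FPKM in alcohol + losartan. Of the 40 pairs of neighbours in the order of levels, 35 overlapped across libraries, so most of the fine order is not resolved. The 5 pairs that did not overlap were FTH1 above FTL, PRDX5 above PRDX6, GPX1 above TXN, TALDO1 above TXNRD1, and NQO1 above OSGIN1.

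A wider list of 67 genes of the NRF2 pathway, glutathione, metal and redox handling outside the group was counted as context. Of these 65 were listed and 56 tested, and 1 passed the threshold in 1 comparison, ARRDC4 in alcohol + losartan against control. At an unadjusted p under 0.05, 4 were higher and 8 lower in alcohol, 4 higher and 7 lower in alcohol + losartan, and 5 higher and 10 lower in all exposed libraries, each against control. The corresponding shares of all genes were 5.27% and 5.78%, 6.26% and 6.37%, and 6.48% and 7.05%. SQSTM1, an adaptor that draws KEAP1 into autophagy and is itself an NRF2 target, had 45.3 and 44.9 FPKM in control, 58.5 and 72.7 FPKM in alcohol, and 61.5 and 50.0 FPKM in alcohol + losartan. Its log2 fold change in alcohol was 0.50 with a standard error of 0.13 (edgeR adjusted p = 0.173). The small MAF partner MAFK had 26.4 and 26.7 FPKM in control, 27.0 and 21.0 FPKM in alcohol, and 20.5 and 15.5 FPKM in alcohol + losartan, a log2 fold change of -0.61 with a standard error of 0.16 in alcohol + losartan (adjusted p = 0.129). The stress sensor SESN2, the thioredoxin-like TXNDC17 and the zinc importer SLC39A10 were lower in the exposed libraries, with log2 fold changes of -0.56 and -0.46 for the former pair over all exposed libraries and -0.40 for the last in alcohol + losartan, and adjusted p-values of 0.136, 0.144 and 0.223.

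A list of 20 glycolysis enzymes and transporters and 8 other hypoxia-induced genes was followed as well because TXNIP and ARRDC4 act on glucose uptake. The 28 genes summed to 10031 and 9135 FPKM in control, 8437 and 5984 FPKM in alcohol, and 9363 and 8996 FPKM in alcohol + losartan, so the low value was that of alcohol replicate 2. Their median log2 fold change was -0.44 in alcohol and -0.07 in alcohol + losartan against control. Counted apart after the values had been seen, the 20 enzymes and transporters had medians of -0.49 and -0.16 and the 7 hypoxia-induced genes tested had -0.36 and 0.10. In alcohol against control the lowest p-values were those of ENO1, PGK1, PGAM1, LDHA, TPI1 and PKM, with log2 fold changes of -1.18 to -0.56 and edgeR adjusted p-values of 0.119 to 0.219. Against control, alcohol + losartan had NDRG1, a hypoxia-induced gene, higher by 0.98 (adjusted p = 0.103) and HK1 lower, at -0.40 (adjusted p = 0.175). Against alcohol, it had the hypoxia-induced NDRG1 and P4HA1 and the aldolase ALDOC higher by 1.34, 0.75 and 0.52 with adjusted p-values of 0.314, 0.646 and 0.796. None of the 27 genes of the list that were tested passed in any comparison. The part of this shift of alcohol replicate 2 in the antioxidant values was not tested, and leaving that library out gave the TXNIP value of 0.25 stated above.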

How the data were processed

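Total RNA libraries of the 6 samples were sequenced by the authors, whose processing notes name HISAT2 2.0.4, Bowtie2 2.2.5, RSEM 1.2.12 and the hg38 genome without giving their order. The authors deposited estimated counts and FPKM per gene. Genes absent from a library's table were set to 0. The estimated counts of 8 members were not whole numbers in 1 library or more, so how their reads were split is uncertain. These members were NQO1, HMOX2, TXNRD2, GCLM, GSR, GPX8, MT1X and MT2A. Estimated counts were rounded to whole numbers and tested with edgeR 4.0.16 in R 4.3.3 (filterByExpr, TMM scaling, quasi-likelihood F test, 2-sided, 1 fit over all 6 libraries, Benjamini-Hochberg over 14926 genes). CPM used to count separated groups were scaled with the TMM factors. FPKM served for levels and, with limma 3.58.1, as an alternative, as did DESeq2 1.42.0, other filters and scaling, a replicate block and leaving out each library. With 2 libraries a group an exact permutation test cannot go below p = 0.333.

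The members and all lists were chosen with earlier results of these data known. Levels in each library are given for a fixed core of members and for any with an unadjusted p under 0.05, and fold changes for those and for the 3 smallest p where fewer reached it. Genes of the companion lists were named at an unadjusted p under 0.01, at most 6 a list and comparison. Of the companion list, SELENOW and SELENOP were found under older symbols, and MT1A and MT1M were not matched. Replicates of a group correlated at 0.975 to 0.978 on log2 CPM. On simulated data for alcohol against control with 14682 genes, the test recovered 91.8% of changes of 2 on the log2 scale. It recovered 67.7% of changes of 1, with 5 false calls. In a run where the groups did not truly differ, the test still named 2 genes. Recovery of changes under 1 was not measured. In alcohol against control only 1 of the 39 members tested, MT1X, exceeded 1. The recovery figures therefore do not tell how often shifts of the size seen in most members would be missed.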

Additional observations from a re-analysis of the deposited data

How the results depend on the processing

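The members and companion genes named (35 gene and comparison pairs) were chosen for a low p in the main test. The alternatives refit the same libraries, so a kept direction carries little weight. The fold changes of these pairs kept their direction in all of the 472 alternative values. Of these values, 446 stayed on the same side of the threshold, 7 lost a call and 19 gained one. The count of genes called depended strongly on the setting. For alcohol against control it was 10, and 72 with DESeq2, 2 with no filter, 26 with at least 10 counts in every library, 0 and 2 with limma on log2(FPKM + 1) and log2(FPKM + 0.1), 3 with only the groups compared, and 1 to 220 when 1 library was left out. For alcohol + losartan against control it was 54, and 128 with DESeq2, 15 with no filter, 2 and 3 with limma, 158 with only the groups compared and 2 to 184 when 1 library was left out. For alcohol + losartan against alcohol it was 2, and 5 with DESeq2, 1 with no filter, 0 with at least 10 counts, 1 with limma at the pseudocount of 1, 4 with only the groups compared and 1 to 24 when 1 library was left out. For all exposed libraries it was 83, and 158 with DESeq2, 27 with no filter, 144 with at least 10 counts, 0 and 5 with limma and 6 to 407 when 1 library was left out. Where limma called 0 genes, 1545 and 1933 had an unadjusted p under 0.05, and 778 did where the stricter filter left 0. Without alcohol replicate 1 the counts were the highest, at 220, 184, 24 and 407, and without alcohol + losartan replicate 1 or 2 they were at most 6.

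The members called were 0, and 1 (TXNIP) in alcohol + losartan against control with DESeq2, at least 10 counts, and only the groups compared, and in all exposed libraries with DESeq2 and at least 10 counts. Leaving out 1 library gave 0 to 1 in both. The median of the members in alcohol + losartan against control ranged from 0.0 (without control replicate 1) to 0.09 when 1 library was left out and up to 0.11 over all alternatives, and in alcohol from 0.02 to 0.12.

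The labels do not say that the replicate numbers mark a shared culture or day, so the numbers were not taken to pair the samples. Same-numbered libraries correlated in their deviations at 0.114, -0.0162 and 0.0412 over all genes tested, which cannot exclude a pairing. With a replicate block the genes called were 48, 136, 5 and 256 in the 4 comparisons, against 10, 54, 2 and 83 without it. The members called were 0, 1, 0 and 1, again TXNIP. At 4898287 to 5051448 counts a library, members under 1 FPKM rested on few reads.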
